A study of Rattus norvegicus with 6 samples.

Results

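miR-143 and miR-145 are a pair of microRNAs (miRNAs) read from neighbouring hairpins, and their reads were counted here in liver small RNA of 3 Wistar rats with nonalcoholic fatty liver disease (NAFLD) and 3 normal Wistar rats. The members are rno-miR-143-3p, rno-miR-145-5p and rno-miR-145-3p, written from here on without the species prefix, which is 3 of the 365 miRNAs that had at least 1 read, and the other arm of the first hairpin, miR-143-5p, is given beside them. A read was counted for a miRNA when its first 18 bases equalled those of the mature sequence. Depending on the library, 58 to 82 distinct read sequences (tags) belonged to the members, among 221610 to 467746 tags in all. The NAFLD rats were fasted and then kept for a week on a diet rich in starch, and those with higher hepatic triglycerides were taken, while the normal rats had a standard diet and were chosen at random. Each library came from 1 male rat, and the labels give an age of 4 months for both groups, whereas the methods of the study give an older one.

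Both hairpins are cut from the same long RNA, whose gene is named Carmn, and they are best known from the contractile smooth muscle of vessel walls, where they hold down factors that favour growth over contraction. In liver they are therefore looked for in vessels, pericytes and stellate cells more than in hepatocytes. Each hairpin can give a 5p and a 3p arm, and the bases at positions 2 to 8 of the loaded arm, the seed, choose its targets. Whole liver was sequenced, so fewer cells of a type cannot be told apart from less RNA per cell.

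The 4 arms are shown with their seeds in capitals, because the leading substitutions of miR-143-3p fall in this stretch and the shifted starts of miR-145-3p move it. The sequences are from RefSeq, build GRCr8, where the arms lie on the minus strand of chromosome 18, at 57371373-57371394 for miR-143-3p, 57371408-57371428 for miR-143-5p, 57370033-57370055 for miR-145-5p and 57369997-57370017 for miR-145-3p. None of the 4 seeds is shared by another of the 693 mature rat miRNAs in that table.
rno-miR-143-3p: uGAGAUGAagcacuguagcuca
rno-miR-143-5p: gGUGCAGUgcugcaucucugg
rno-miR-145-5p: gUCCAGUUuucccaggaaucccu
rno-miR-145-3p: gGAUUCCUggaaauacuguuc

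The hairpins are 1278 bases apart, and they are shown with the annotated arms in capitals since the ends of the reads were judged against them. The gene table lists both inside Carmn, a long non-coding RNA gene.
Mir143: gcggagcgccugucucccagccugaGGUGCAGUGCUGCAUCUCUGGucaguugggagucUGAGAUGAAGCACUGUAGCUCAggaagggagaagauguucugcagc
Mir145: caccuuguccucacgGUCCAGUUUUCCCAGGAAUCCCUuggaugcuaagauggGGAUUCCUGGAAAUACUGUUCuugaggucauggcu

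The libraries held 11601058 to 11880695 clean reads. Of these, 75.7% to 79.2% matched a miRNA in the NAFLD livers and 85.7% to 91.3% in the normal livers, without overlap. Levels are in TPM, the reads of a miRNA per 1000000 clean reads of its library, so that 1 read was worth 0.0842 to 0.0862 TPM. All clean reads are the divisor, so the difference in matched share enters every comparison of TPM between the groups. With miRNA reads as library size, the median log2 fold change of NAFLD over normal among the miRNAs tested went from 0.018 to 0.205. The libraries fell into 2 sets that cut across the groups. In normal replicate 2 and NAFLD replicates 2 and 3, a median of 1.94% to 2.14% of a miRNA's reads carried a substitution at read position 4, against at most 0.0219% in NAFLD replicate 1, normal replicate 1 and normal replicate 3. These are called the high and the low set. Since the first 18 bases had to match, reads with a substitution there were lost to the count, and the levels of miR-143-3p and miR-145-5p are therefore also given with 1 substitution allowed. miR-122-5p, the hepatocyte miRNA, had 445063 to 465119 TPM in the NAFLD livers and 560716 to 595583 TPM in the normal livers, and so marked each library as liver.

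miR-143-3p, the leading arm of its hairpin, was read at about equal levels in both groups, and its level followed the set of the library instead. It had 203, 122 and 128 TPM in NAFLD replicates 1 to 3 and 193, 117 and 190 TPM in normal replicates 1 to 3. The 3 libraries of the high set lay between 117 and 128 TPM and the 3 of the low set between 190 and 203 TPM, without overlap, whereas the groups overlapped. By mean level it ranked 34 among the 365 miRNAs. The group means were 151 ± 45.4 TPM and 167 ± 42.6 TPM (SD, n = 3 each), and the log2 fold change of NAFLD over normal was -0.14 (standard error 0.43, adjusted p = 0.986, edgeR's quasi-likelihood test over 167 miRNAs). In that test 0.599% of the miRNAs passed an adjusted p of 0.05, namely miR-122-5p, with a log2 fold change of -0.35 (standard error 0.04, adjusted p = 0.000532 from edgeR). The number of members that passed was 0. Within the low set NAFLD replicate 1 was above both normal livers, and within the high set both NAFLD livers were above normal replicate 2. With the set as a covariate the log2 fold change was 0.09 (standard error 0.20), so its sign was not settled.

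The miR-143-3p reads that the exact match lost mostly had an altered base in the seed. In the high set 30.3%, 35.2% and 32.2% of its reads within 1 substitution (NAFLD replicates 2 and 3, then normal replicate 2) were substituted, against 1.96% to 3.52% in the low set. Positions are counted from 1 at the 5′ end, and the base of the mature sequence is given first. The substitution A8C, at the last base of the seed, was carried by 348, 507 and 408 reads in the 3 libraries of the high set and by 0, 0 and 1 read in NAFLD replicate 1, normal replicate 1 and normal replicate 3. The substitution A5C, inside the seed, was carried by 178, 184 and 171 reads in the high set and by 0 reads in the low set. A change from A to C made up 90.03% to 92.9% of the substituted miR-143-3p reads in the high set. This loss was not particular to miR-143-3p. Over the 82 miRNAs with at least 100 reads in every library, the median share of substituted reads was 29.4% to 30.6% in the high set and 0.978% to 1.27% in the low set.

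**Figure D1:**
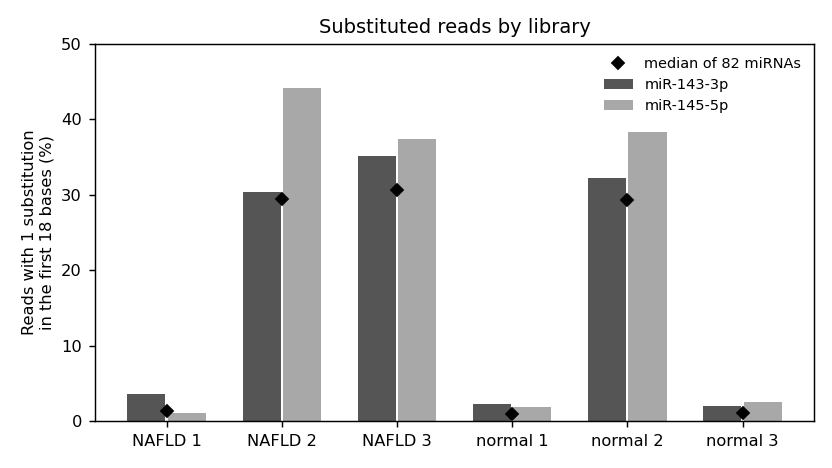
Share of reads with 1 substitution in the first 18 bases (y axis, percent of reads within 1 substitution) for miR-143-3p (dark bars) and miR-145-5p (light bars) in each library (x axis), with diamonds for the median of 82 miRNAs. Normal replicate 2 and NAFLD replicates 2 and 3 reach 30.3% to 44.1%, and the other libraries stay at or below 3.52%.

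With 1 substitution allowed, miR-143-3p had 211, 174 and 197 TPM in the NAFLD livers and 197, 173 and 194 TPM in the normal livers. The gap between the sets shrank, from a mean of 122 against 195 TPM to 182 against 200 TPM. The log2 fold change was then 0.05 (standard error 0.24, adjusted p = 0.972 from edgeR). With 2 substitutions allowed the sets had means of 200.0 and 200.5 TPM, and the groups 207 ± 14.3 TPM and 194 ± 3.18 TPM (SD, n = 3 each). The SD of the NAFLD livers thus went from 45.4 to 14.3 TPM once substituted reads were counted, and that of the normal livers from 42.6 to 3.18 TPM.

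**Figure D2:**
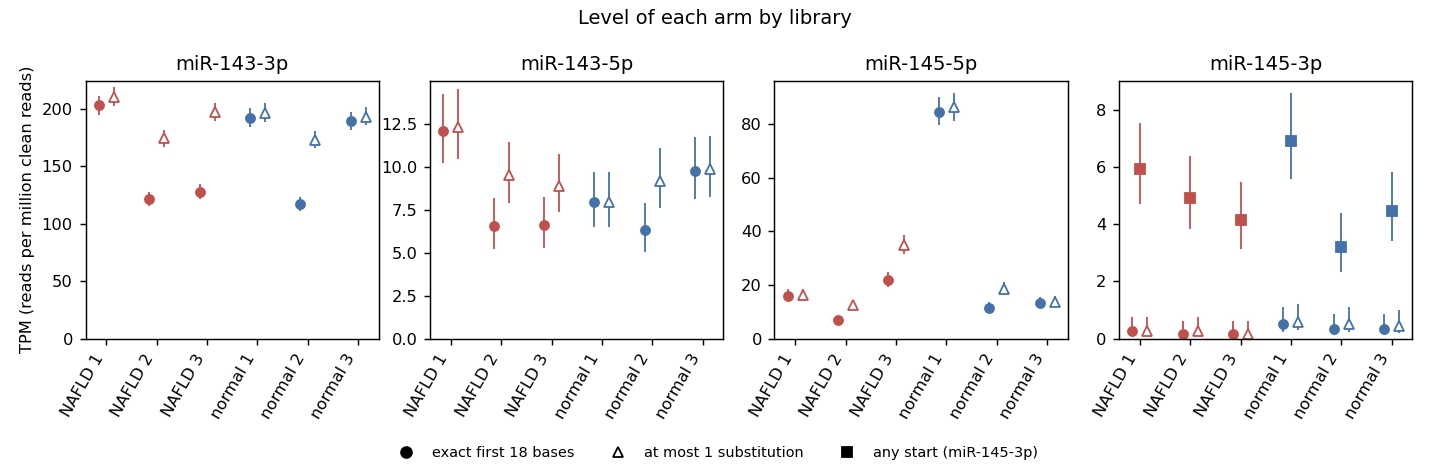
Level in TPM (y axes, linear and from 0, with a scale for each arm) of the 4 arms in each library (x axes), red for NAFLD and blue for normal, with bars for 95% Wilson intervals of the counting error. Filled circles need an exact match of the first 18 bases, open triangles allow 1 substitution, and squares count miR-145-3p from any start. Allowing 1 substitution raises miR-143-3p in normal replicate 2 and NAFLD replicates 2 and 3, and normal replicate 1 stands apart for miR-145-5p at 84.6 TPM.

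miR-143-5p, the arm that is usually discarded, had 12.1, 6.55 and 6.60 TPM in the NAFLD livers and 7.93, 6.32 and 9.76 TPM in the normal livers. The groups overlapped, and its log2 fold change was 0.07 (standard error 0.40, adjusted p = 0.986 from edgeR). Each read of this arm went with 16.8 to 19.4 reads of miR-143-3p in the NAFLD livers and with 18.6 to 24.3 in the normal livers, and these ranges overlapped. Ends not in the hairpin were frequent in this arm, at 41.4%, 45.5% and 48.7% of its reads in the NAFLD livers and 35.1%, 42.7% and 37.9% in the normal livers, with overlap between the groups.

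miR-145-5p, the leading arm of the neighbouring hairpin, was set apart by a single library. It had 15.9, 6.89 and 21.8 TPM in NAFLD replicates 1 to 3 and 84.6, 11.4 and 13.2 TPM in normal replicates 1 to 3. These values rest on 185, 81 and 258 reads and on 1003, 135 and 157 reads. Normal replicate 1 lay 3.87 times above the next highest library, and without it the groups overlapped closely. The group means were 14.9 ± 7.53 TPM and 36.4 ± 41.8 TPM (SD, n = 3 each). The log2 fold change was -1.29 (standard error 0.72, adjusted p = 0.986 from edgeR), and only 1 of the 167 miRNAs tested had a lower value. Without normal replicate 1 the log2 fold change turned to 0.28 (standard error 0.53, adjusted p = 0.991 from edgeR). The lower mean in NAFLD thus rested on normal replicate 1, and the difference did not pass the test with or without it.

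The high level in normal replicate 1 was not shared by most miRNAs of that library, a comparison chosen after the values were seen. Of 142 miRNAs with at least 10 reads in every library, miR-145-5p had the highest ratio of normal replicate 1 to the highest other library, followed by miR-361-5p at 2.23. Those 2 were the miRNAs over 2 times the next library there, as against 2 in NAFLD replicate 1 and 0 in each of the remaining libraries. miR-143-3p was at 0.948 of the highest other library in normal replicate 1. The other arm of the same hairpin, miR-145-3p, was highest in normal replicate 1 as well but by much less, as given with its shifted starts. Normal replicate 1 belongs to the low set, where 1.86% of its miR-145-5p reads were substituted.

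Substituted reads of miR-145-5p were frequent in the same 3 libraries. They made up 44.1%, 37.4% and 38.4% in NAFLD replicates 2 and 3, then normal replicate 2, and 1.07%, 1.86% and 2.48% in NAFLD replicate 1, normal replicate 1 and normal replicate 3. The leading changes were A5C, in the seed, with 15, 51 and 29 reads in the high set, and A14C, outside it, with 15, 36 and 20 reads. Next was C4A, in the seed, with 16, 23 and 16 reads. A change from A to C made up 46.9% to 58.3% of the substituted miR-145-5p reads in the high set, less than for miR-143-3p. A5C and A14C were at 0 reads in each library of the low set, and C4A had 2 reads in normal replicate 1. With 1 substitution allowed, miR-145-5p had 16.1, 12.3 and 34.9 TPM in the NAFLD livers and 86.2, 18.4 and 13.6 TPM in the normal livers, with a log2 fold change of -0.90 (standard error 0.59, adjusted p = 0.731 from edgeR). NAFLD replicate 3 was the next highest library, as it was by exact match, and normal replicate 1 stayed apart.

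The clustered miRNAs did not keep a fixed ratio between livers. Per read of miR-145-5p there were 12.7, 17.6 and 5.86 reads of miR-143-3p in the NAFLD livers and 2.28, 10.3 and 14.4 in the normal livers. The lowest ratios were those of normal replicate 1 and NAFLD replicate 3, and the groups overlapped. On the log2 scale the mean ratio was 3.45 ± 0.82 in the NAFLD livers and 2.80 ± 1.42 in the normal livers (SD, n = 3 each). The difference of 0.66 was within the spread between libraries (two-sided exact permutation test, p = 0.6, where 3 libraries against 3 cannot give a p below 0.1). Without normal replicate 1 it was -0.15 (exact permutation p = 0.9). Within the high set the difference was -0.02 and within the low set 1.16, each from 1 library against 2 and so without a test. The ratio moved little when 1 substitution was allowed, to 13.1, 14.1 and 5.66 and to 2.28, 9.39 and 14.3.

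**Figure D3:**
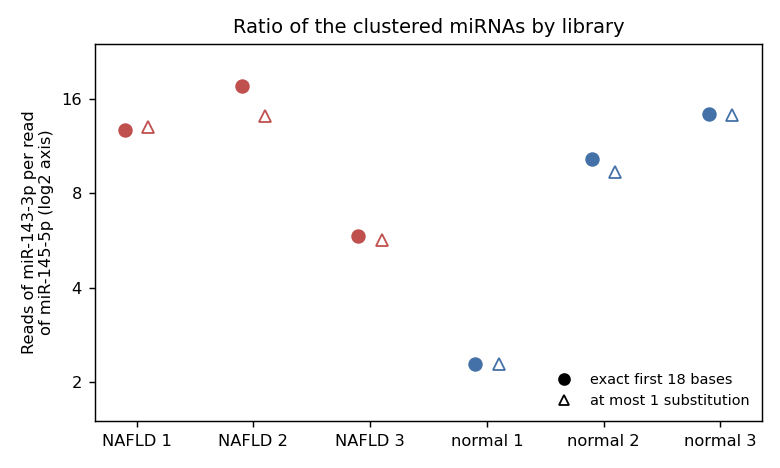
Reads of miR-143-3p per read of miR-145-5p (y axis, log2 scale) in each library (x axis), red for NAFLD and blue for normal, by exact match (filled circles) and with 1 substitution allowed (open triangles). The ratio runs from 2.28 in normal replicate 1 to 17.6 in NAFLD replicate 2, and the groups overlap.

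miR-145-3p, the third member, was close to the limit of what these libraries can count from its annotated start. It had 3, 2 and 2 reads in the NAFLD livers and 6, 4 and 4 reads in the normal livers, or 0.169 to 0.259 TPM and 0.337 to 0.506 TPM. The groups did not overlap, but the 95% Wilson intervals did. Separation in that direction held for 1.2% of the 167 miRNAs tested, which have more reads and do not include miR-145-3p. The interval of NAFLD replicate 1 went from 0.0879 to 0.760 TPM and that of normal replicate 1 from 0.232 to 1.10 TPM. By its annotated start miR-145-3p had too few reads to enter the edgeR test.

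Most of its reads began 2 bases after the annotated first base and so were missed by the count above. When reads were taken by bases 5 to 18 of the mature sequence, with a start up to 4 bases to either side in the hairpin, 349 reads of miR-145-3p were found, of which 312 began 2 bases later, 15 began 1 base later and 21 at the annotated base. The most frequent tags of either start that end within the hairpin are shown with positions 2 to 8 of the tag in capitals, to compare them with the annotated seed GAUUCCU.
21 nt, starting 2 bases later: aTTCCTGGaaatactgttctt
20 nt, starting 2 bases later: aTTCCTGGaaatactgttct
22 nt, starting at the annotated base: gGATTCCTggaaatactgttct
These tags had 139, 73 and 15 reads in all. A pair of shifted tags whose end is not in the hairpin, with 26 and 20 reads, also had more reads than the shown tag with the annotated start. The seed of the shifted form, UUCCUGG, is that of 0 mature miRNAs in the table, and the first 18 bases of that form occur in 1 hairpin of the table, that of miR-145.

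The shifted share was 95.7%, 96.6% and 95.9% in the NAFLD livers and 92.7%, 89.5% and 92.5% in the normal livers. All 3 NAFLD livers were above the normal ones, a difference of 4.50 percentage points between means of 96.0% ± 0.462 and 91.5% ± 1.79 (SD, n = 3 each; exact permutation p = 0.1, the smallest that 3 against 3 allow). Such a separation upward was seen for 5.45% of 110 miRNAs. Here it rests on 2 to 6 reads per library at the annotated start, and the 95% Wilson interval of NAFLD replicate 1, from 88.0% to 98.5%, took in the shares of all 3 normal livers. A shifted start of this frequency was rare. More than 50% of the reads were shifted in every library for 5 of the 110 miRNAs, while the median share was 0.488%, and the other arms of the cluster had 0% to 2.41%.

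**Figure D4:**
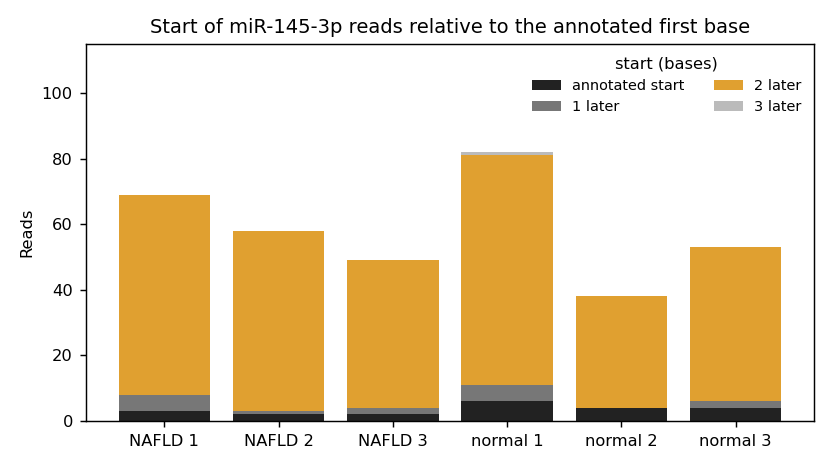
Reads of miR-145-3p (y axis, counts) in each library (x axis), stacked by how many bases after the annotated first base they start. The part that starts 2 bases later makes up most of every bar, and the annotated start has 2 to 6 reads.

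Counted from any start, miR-145-3p had 5.95, 4.93 and 4.15 TPM in the NAFLD livers and 6.92, 3.20 and 4.46 TPM in the normal livers. Normal replicate 1 was the highest and normal replicate 2 the lowest, and the groups overlapped. The means were 5.01 ± 0.902 TPM and 4.86 ± 1.89 TPM (SD, n = 3 each), with a log2 fold change of 0.04 (standard error 0.40, adjusted p = 0.991 from edgeR with all miRNAs counted from any start). The lower level by the annotated start was therefore not seen when exact-match reads of any start were counted. Substituted reads, frequent in the high set, were still left out, and that set holds more NAFLD than normal livers. miR-145-3p was not counted from any start with a substitution allowed. How far this loss enters the fold change and the ratios that follow was not tested. From any start there were 2.70, 1.43 and 5.27 reads of miR-145-5p per read of miR-145-3p in the NAFLD livers and 12.2, 3.61 and 3.02 in the normal livers. By the annotated start these ratios were 40.5 to 129 and 33.8 to 167. The difference in the log2 ratio was -0.90 from any start and 0.18 by the annotated start (exact permutation p = 0.4 and 0.8).

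The order of the arms was miR-143-3p, then miR-145-5p, then miR-143-5p, then miR-145-3p, in each of the 6 libraries by exact match. Between miR-145-5p and miR-143-5p the gap was smallest in NAFLD replicate 2, at 6.89 and 6.55 TPM, and their 95% Wilson intervals overlapped there, in NAFLD replicate 1 and in normal replicate 3.

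The 3′ ends of the reads differed between the hairpins. The most frequent miR-143-3p tags were shorter than the annotated form, or carried a last base that is not in the hairpin, here in capitals.
20 nt: tgagatgaagcactgtagct
21 nt: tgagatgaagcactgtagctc
22 nt: tgagatgaagcactgtagctcT
22 nt, as annotated: tgagatgaagcactgtagctca
These tags held 30.7%, 30.6%, 15.3% and 2.78% of the miR-143-3p reads over all libraries. Reads that were shorter than annotated and ended within the hairpin made up 66.2% to 67.2% in the NAFLD livers and 63.5% to 67.8% in the normal livers. Ends not in the hairpin made up 30.5% ± 0.147 and 30.9% ± 1.79 (SD, n = 3 each; exact permutation p = 1.0). The mean length was 20.82, 20.83 and 20.84 nt in the NAFLD livers and 20.85, 21.04 and 20.87 nt in the normal livers. The groups did not overlap, which held downward for 11.5% of 104 miRNAs, but the difference was -0.0865 nt (exact permutation p = 0.1) and the groups overlapped once 1 substitution was allowed. Without normal replicate 2, the liver with the longest reads, the difference was -0.0254 nt.

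For miR-145-5p the annotated form was the most frequent tag, and it is shown with the next templated form and with the form that has a further base not in the hairpin.
23 nt, as annotated: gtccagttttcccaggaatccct
24 nt: gtccagttttcccaggaatccctt
25 nt: gtccagttttcccaggaatcccttT
They held 50.03%, 12.0% and 4.67% of its reads over all libraries. The annotated form made up 37.8%, 44.4% and 41.9% of the reads in the NAFLD livers and 55.6%, 45.9% and 48.4% in the normal livers. Ends not in the hairpin made up 30.3%, 23.5% and 26.7% in the NAFLD livers and 10.4%, 21.5% and 19.1% in the normal livers.

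By these shares the 3 NAFLD livers lay to one side of the 3 normal ones. The annotated form was lower by 8.61 percentage points and ends not in the hairpin were higher by 9.84 points (exact permutation p = 0.1 for each). Separation in these directions was seen for 14.4% and 6.73% of 104 miRNAs, so the former was common. The mean length was 22.94 ± 0.0738 nt in the NAFLD livers and 22.73 ± 0.103 nt in the normal livers (SD, n = 3 each; exact permutation p = 0.1), an upward separation that 3.85% of the miRNAs had. Normal replicate 1, which held the most reads, had the lowest share of ends not in the hairpin, and without it the difference was 6.53 points. NAFLD replicate 2, with 19 such reads of 81, had a 95% Wilson interval from 15.6% to 33.8%, which took in the shares of normal replicates 2 and 3. When tags with a single read were left out, the groups overlapped both in this share and in that of the annotated form, which was then 48.0% in NAFLD replicate 2 and 47.3% in normal replicate 2. In length they overlapped when 1 substitution was allowed.

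**Figure D5:**
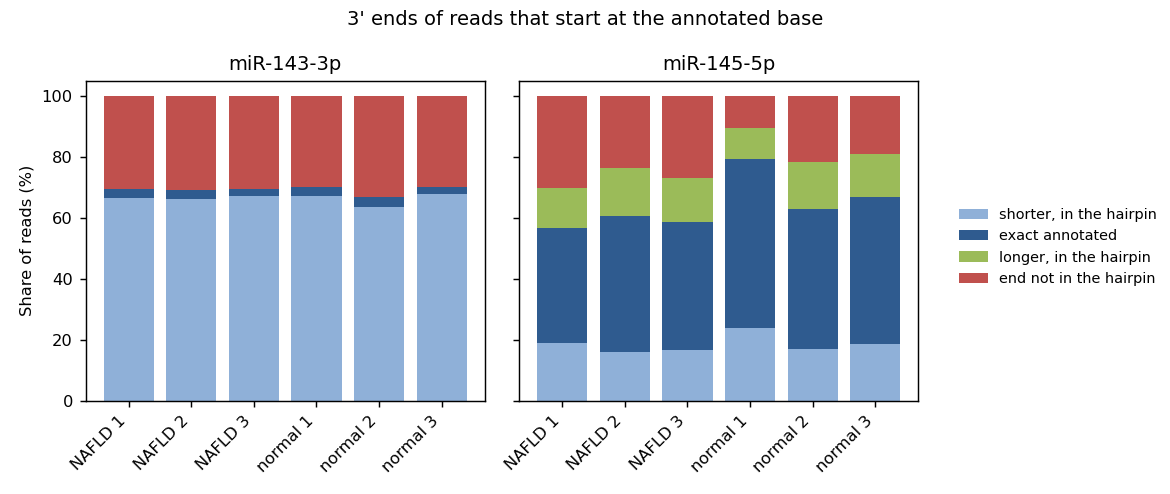
Share of reads (y axis, percent) by 3′ end in each library (x axis) for miR-143-3p and miR-145-5p, for reads that start at the annotated base. Most miR-143-3p reads in every library are shorter than annotated and end within the hairpin, and in miR-145-5p the part whose end is not in the hairpin is smallest in normal replicate 1, at 10.4%.

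The miRNAs that moved most like miR-143-3p across the 6 libraries were miR-26a-5p, miR-29c-3p, miR-30c-5p, miR-16-5p and miR-26b-5p, with Pearson's r of log2(TPM + 1) from 0.983 to 0.989 among 86 miRNAs of at least 10 TPM. All 5 were lower in the 3 libraries of the high set. With 1 substitution allowed the 5 nearest were miR-26a-5p, miR-16-5p, miR-191a-5p, miR-101a-3p and miR-26b-5p, at r from 0.904 to 0.958. For miR-145-5p they were miR-139-5p, miR-365-3p, miR-92a-3p, miR-146a-5p and miR-186-5p, with r from 0.838 to 0.959, and each was highest in normal replicate 1. The rise there was smaller than that of miR-145-5p, since miR-139-5p went from 9.53 TPM in NAFLD replicate 2 to 15.02 TPM in normal replicate 1. These values of r describe 6 libraries and share the sets.

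Other miRNAs known from smooth muscle, pericytes and stellate cells were compared as a list. Of 9 listed, 8 were in the reference table and 7 had enough reads for the test, of which 0 rose and 0 fell, against 0.599% of all miRNAs. The median log2 fold change of the 7 was -0.10, against 0.02 over all 167 miRNAs tested. The most abundant, miR-199a-3p of stellate cells, had 423 ± 20.4 TPM in the NAFLD livers and 296 ± 87.0 TPM in the normal livers (SD, n = 3 each), with a log2 fold change of 0.51 (adjusted p = 0.986 from edgeR). Its libraries had 439, 400 and 430 TPM in NAFLD and 294, 210 and 384 TPM in normal, without overlap. For every other tested member of the list the groups overlapped. The share of all miRNAs that separated upward in TPM is not given, so this separation cannot be weighed. miR-125b-5p had -0.38 and miR-214-3p 0.38 (adjusted p = 0.986 for both, edgeR). miR-10b-5p had no read from its annotated start, which allows up to 0.253 to 0.259 TPM per library for that form alone. Reads with another start are not in these counts or sums, and for miR-214-3p they made up 21.5% to 36.9% of the reads, by library. The summed level of the list by exact match was 494 to 660 TPM in the NAFLD livers and 297 to 635 TPM in the normal livers. With 1 substitution allowed it was 677 to 809 TPM and 442 to 813 TPM. Normal replicate 1, where miR-145-5p was highest, had 484 TPM by exact match and was not the highest normal library.

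For other cell types in the liver the lists gave as follows, by exact match unless stated, which loses substituted reads in the high set. Endothelial miRNAs, miR-126a-3p and miR-126a-5p, summed to 23.5 to 48.4 TPM in the NAFLD livers and 14.7 to 41.1 TPM in the normal livers. The striated muscle list summed to 42.4 to 68.0 TPM and 21.0 to 40.8 TPM, mostly miR-499-5p. From the annotated start, its defining members miR-133a-3p and miR-133b-3p, which share their first 18 bases, had at most 1 read in a library. miR-208a-3p had 0. The erythroid list had 27.0 to 76.3 TPM and 30.8 to 50.4 TPM. The immune list had 7.48 to 15.3 TPM and 3.96 to 13.4 TPM. The immune sums missed reads with a shifted start and are therefore too low. Such reads made up 86.3% to 90.6% of the miR-142-5p reads, by library, and 23.3% to 54.9% of the miR-223-3p reads. The bile duct list, with 2 of its 5 miRNAs in the table, had 0.765 to 2.03 TPM and 1.77 to 2.95 TPM, and 11.65 to 25.1 TPM and 15.2 to 38.4 TPM with 1 substitution allowed. In these 5 lists 0 of the 10 miRNAs tested passed an adjusted p of 0.05 (edgeR), against 0.599% of all miRNAs tested. With so low a share over all miRNAs, the 0 does not set these lists apart. Of the 4 hepatocyte miRNAs, miR-122-5p was lower and the other 3 did not pass. The sums of the striated muscle list did not overlap between the groups, but miR-499-5p, most of the sum, did not pass. Its log2 fold change was 0.66 (adjusted p = 0.986 from edgeR). The share of all miRNAs with such an upward separation is not given here. The part of this list in the values of miR-143 and miR-145 was not tested.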

How the data were processed

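Small RNA of 18–30 nt was cut from a gel and run by Solexa sequencing, after which the authors dropped reads of low quality, with 5′ primer contamination, with poly A, with no 3′ primer or insert, or too short. The deposited tag lists hold a raw count for every tag left, and neither a normalization nor a genome-match filter was applied. The submitters' processing notes name the builds rn5 and Rnor_5.0, and no coordinates of that build were used. Counts of a tag list added up to the clean reads that the deposited log gives. A further form of each list was not used.

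Counts per miRNA were made in Python 3.11.15 (pandas 2.3.3, numpy 2.4.6, scipy 1.17.1) from tags whose first 18 bases equalled those of a mature rat miRNA in RefSeq, with miRNAs that share these bases as 1 of 675 features. TPM used total clean reads, as in the study. Under R 4.3.3, edgeR 4.0.16 fitted and tested the counts by quasi-likelihood (glmQLFit, then glmQLFTest) with clean reads as library size, after filterByExpr, and p was adjusted by Benjamini-Hochberg over all 167 miRNAs kept. A standard error is the size of the log2 fold change over the square root of F. DESeq2 1.42.0 and limma 3.58.1 were alternatives. The script was tested on simulated data. Ratios and shares were compared by two-sided exact permutation tests. Wilson intervals at 95% and the floor of 3 reads hold for counting error alone, because PCR copies are not separate molecules. The division into sets was made at the largest gap in the substitution share at read position 4.

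The members, lists and tests were chosen with earlier results of these data known. The text names the members, the other arm, the 5 miRNAs most like miR-143-3p and miR-145-5p each, the listed miRNAs and up to 6 leading tags of a member. miR-361-5p and the tags by start were named after their values were seen. Of the listed miRNAs, 6 were not in the reference table and are not analysed here (miR-99a-5p, miR-486, miR-150-5p, miR-200a-3p, miR-200b-3p and miR-429). With 1 substitution allowed, reads of a relative that differs by 1 base can be counted for a miRNA.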

Additional observations from a re-analysis of the deposited data

How the results depend on the processing

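Log2 fold changes of miR-143-3p stayed near 0, and their sign turned to 0.050 with library size set to miRNA reads, 0.088 with the set as covariate, 0.047 with 1 substitution allowed and 0.082 with 1 substitution allowed and normal replicate 1 left out. For miR-145-5p leaving out each library in turn gave -1.71 to 0.28, where the positive value is that without normal replicate 1, and 0.40 when 1 substitution was also allowed. Over 21 fits the adjusted p was 0.875 to 1.00 for miR-143-3p and 0.539 to 1.00 for miR-145-5p. The log2 ratio of group means of miR-145-3p went from -0.98 by the annotated start to 0.044 from any start, the latter added after the data were seen. The log2 ratio of miR-143-3p to miR-145-5p differed by -0.15 to 1.18 with single libraries left out, by -0.022 within the high set and by -0.19 with 1 substitution and without normal replicate 1. That of miR-145-5p to miR-145-3p differed by -0.28 to 0.91 with single libraries left out, by -0.39 within the low set and by -0.90 from any start. With single libraries left out, the share of annotated miR-143-3p differed by -0.414 to 0.198 points, its ends not in the hairpin by -0.968 to 0.610 points (0.125 with 1 substitution), its shifted starts by -0.139 to 0.258 points and those of miR-145-5p by -0.876 to 0.329 points. Of all other comparisons with an alternative, 140 kept their direction and side of the threshold, or their value within the spread. The number of miRNAs with an adjusted p under 0.05 was 1 by edgeR, 1 to 2 with single libraries left out (miR-184 was added without NAFLD replicate 1), and 0 with TMM factors or with library size set to miRNA reads, where 12 and 6 had an unadjusted p under 0.05. DESeq2 called miR-1b in place of miR-122-5p. The cause of these changes was not tested.

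The replicate numbers are shared by the groups. Deviations from the group means correlated at 0.15, 0.34 and -0.54 between same-numbered libraries. Over all pairs across the groups, r was 0.15 to 0.45 within a set and -0.54 to 0.10 between sets. Because r went with the sets, these values cannot decide whether the numbers pair the libraries, and the main test took no pairing. With the replicate block the log2 fold change was -0.15 for miR-143-3p and -0.81 for miR-145-5p, and 1 miRNA was called. Depth limits miR-145-3p at its annotated start, with 2 to 6 reads per library.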
